A study of Mus musculus with 12 samples.

Results

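The immunoglobulin heavy-chain constant genes Ighm, Ighd, Igha, Ighe, Ighg1, Ighg2b, Ighg2c and Ighg3, together with Jchain, were followed through 6 single-cell gene expression libraries of antibody-secreting cells (ASCs). These 9 genes were taken by name from the 32285 genes of the tables. Their values were read in barcodes with at least 1000 unique molecular identifiers (UMIs, each counting 1 captured RNA molecule) outside genes whose symbols start with Igh, Igk or Igl. The leading light-chain V gene also had to hold at least 50% of the light-chain V UMIs of the barcode. These limits kept 8715 of the 39949 cells in the filtered lists.

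Each heavy-chain constant gene encodes the part of an antibody that sets its isotype. A B cell first transcribes Ighm and Ighd, and class switch recombination then joins its rearranged variable region to Igha, Ighe or one of the IgG genes by deleting the DNA between. Jchain encodes the joining chain, a small protein that links IgM into pentamers and IgA into dimers and lets the polymeric immunoglobulin receptor carry both across epithelia. IgG does not use it.

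The mice were 3 months old Prdm1-eYFP reporter animals on a C57BL/6 background, in which the yellow fluorescent protein marks cells with activity of Prdm1, a transcription factor of ASCs. No other genotype or treatment was compared. Cells from bone marrow, spleen and thymus of females and of males were sorted as CD138-high, IgD-negative, CD90.2-negative and reporter-positive, with or without B220, from pools of 3 mice. Each combination of sex and tissue gave 1 expression library and 1 library enriched for B cell receptors (VDJ), so a tissue has 2 expression libraries, a sex has 3, and no combination was replicated. Whether 1 pool of mice gave all 3 tissues is not stated, so the spread between libraries holds sex, pool and handling together.

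The cells that met the rule numbered 1238 of 5864 in female bone marrow, 1665 of 4894 in male bone marrow, 3567 of 15576 in female spleen, 1850 of 11277 in male spleen, 107 of 752 in female thymus and 288 of 1586 in male thymus. Their median depth outside immunoglobulin was lowest in female thymus (2035 UMIs) and highest in female spleen (4352), and the thymus libraries had the fewest cells. All 8 ASC marker genes were detected in every library, at a summed level of 9856 to 15417 UMIs per 1e+06, while B cell markers summed to 150 to 230 and T cell markers to 5.8 to 79.4. Neutrophil markers reached 1363 in male bone marrow, and 3406 in its cells with few ribosomal transcripts; their part in the results was not tested. Pairs of expression libraries shared 0 to 11 barcodes among these cells.

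The cells were split by their share of ribosomal transcripts. In between 14.0% (female thymus) and 48.8% (female spleen) of the cells, ribosomal protein genes gave at least 10% of the UMIs outside immunoglobulin, and these cells had median depths of 4185 to 9997 UMIs. The other cells had medians of 1960 to 3139 UMIs, and in every library a lower median share of their leading light-chain V gene. Results on Jchain are given for both kinds of cell.

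The labels of the VDJ libraries went against their barcodes. Of the barcodes in each VDJ library, 49.9% to 100% were also in the expression library of the same tissue and the opposite labelled sex, and 1.36% to 2.21% in the expression library with the same labelled sex. All 6 VDJ libraries showed this exchange. VDJ data were therefore joined by shared barcodes, a VDJ library is named below by the expression library whose barcodes it shares, and the join by label is given once beside the main value. The sex labels of the expression libraries went with sex-specific genes. Per 1e+06 UMIs outside immunoglobulin, Xist stood at 672 to 1629 in those labelled female and 0.65 to 1.68 in those labelled male. Ddx3y, on the Y chromosome, stood at 0 to 0.047 and 60.2 to 84.1.

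The 8 constant genes lie in 1 cluster on the minus strand of chromosome 12, at chr12:113418558-113422730 for Ighm, chr12:113406604-113416324 for Ighd, chr12:113356224-113361232 for Ighg3, chr12:113325240-113330523 for Ighg1, chr12:113302965-113307933 for Ighg2b, chr12:113285325-113288932 for Ighg2c, chr12:113269260-113273248 for Ighe and chr12:113254830-113260236 for Igha (GRCm38). Jchain lies at chr5:88519809-88527891, also on the minus strand. The first 90 bases of the first constant exon are printed 5′ to 3′ as the annotation gives them, because this is the sequence next to the rearranged variable region and what tells the isotypes apart. Capitals mark the bases of the other IgG genes that differ from Ighg2b at the same position.
Ighm: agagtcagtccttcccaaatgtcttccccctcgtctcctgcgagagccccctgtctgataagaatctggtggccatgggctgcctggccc
Ighd: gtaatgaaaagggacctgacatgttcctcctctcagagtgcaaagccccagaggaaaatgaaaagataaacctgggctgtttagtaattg
Igha: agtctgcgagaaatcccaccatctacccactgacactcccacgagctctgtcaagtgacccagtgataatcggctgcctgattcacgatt
Ighe: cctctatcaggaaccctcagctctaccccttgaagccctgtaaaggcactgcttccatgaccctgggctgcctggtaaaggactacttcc
Ighg1: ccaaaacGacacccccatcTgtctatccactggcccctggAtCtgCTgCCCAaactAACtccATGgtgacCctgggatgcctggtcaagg
Ighg2b: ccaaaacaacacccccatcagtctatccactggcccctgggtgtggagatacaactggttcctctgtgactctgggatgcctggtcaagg
Ighg2c: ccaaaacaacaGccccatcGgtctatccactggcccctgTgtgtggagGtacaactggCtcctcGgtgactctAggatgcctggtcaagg
Ighg3: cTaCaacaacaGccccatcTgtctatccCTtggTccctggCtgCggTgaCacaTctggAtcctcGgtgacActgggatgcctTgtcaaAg

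Within these 90 bases Ighg2c differed from Ighg2b at 7 positions, and Ighg1 and Ighg3 at 17 each. Over the 291 bases of the whole exon, Ighg2b shared 88.3% of positions with Ighg1, 87.6% with Ighg2c and 78.7% with Ighg3. The longest run of bases that Ighg1 and Ighg2b share in this exon is 37. A read wholly inside such a run could come from either gene. Whether reads were that short, and how such reads were counted, was not examined. Their part in small counts of 1 IgG gene beside large counts of another was not tested.

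Levels are given as UMIs per 1e+06 UMIs outside genes starting Igh, Igk or Igl (CPM). A 5′ UMI counts a molecule once whatever its length. UMIs of genes starting Igh, Igk or Igl, which include V genes, were 46.6% to 57.4% of all UMIs in the kept cells. A UMI of an antibody transcript can be counted for its V gene, so levels of constant genes need not give all of their RNA. In sums over a library, fewer cells of an isotype and less of its RNA per cell cannot be told apart.

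Ighm, the constant gene of IgM, was the most abundant constant gene in every library. It stood at 73252 CPM in female and 84092 in male bone marrow, 62768 in female and 105284 in male spleen, and 43337 in female and 42885 in male thymus. Both thymus libraries lay below all 4 others. Ighm gave 63.3% of the UMIs of the 8 constant genes in female thymus and 93.7% in male bone marrow, the lowest and the highest share.

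Igha, the constant gene of IgA, the antibody of mucosal surfaces, was at 10379 CPM in female and 2741 in male bone marrow. In spleen it was at 5893 in the female and 2356 in the male library. In thymus it was at 10517 in the female and 4781 in the male library. The female library was higher than the male one in each tissue, by 3.79-fold in bone marrow, 2.5-fold in spleen and 2.20-fold in thymus. The tissues overlapped.

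Of the IgG genes, Ighg2b had 3479 CPM in the female and 755 in the male bone marrow library. Spleen had 6580 in the female and 4018 in the male library, and thymus 13302 and 1685. The female thymus value was the highest of the 6 and the male one the next to lowest. In female thymus Ighg2b was the leading constant gene in only 14 cells. In the 2 IgG cells (classed below) with more ribosomal transcripts it stood at 138035 CPM, at a median depth of 6147 UMIs. In the 15 other IgG cells it stood at 58228 CPM, at a median depth of 1993 UMIs. The female thymus value thus rests on few cells. Ighg2c, the C57BL/6 counterpart of the IgG2a gene, had 1671 CPM in the female and 828 in the male bone marrow library. Spleen had 5970 and 3170, and thymus 234 and 4422. The female library was higher in bone marrow and spleen, and the male library in thymus. Ighg3 varied least among the IgG genes, from 547 CPM in male thymus to 2077 in female spleen, and both thymus libraries lay below the others.

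Ighg1 had the widest range. In spleen it stood at 1630 CPM in the female and 974 in the male library. The bone marrow libraries had 163 (female) and 8.61 (male), and the thymus libraries 280 and 10.1. Both spleen libraries lay above all others. The male bone marrow and male thymus values rest on 80 and 12 UMIs, and outside the filtered lists Ighg1 stood at 383 CPM in male thymus. The part of reads shared with another IgG gene, or of free RNA, in these low values was not tested.

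Ighd and Ighe were close to absent. Ighd gave 5, 7, 44, 5, 0 and 1 UMIs in female and male bone marrow, female and male spleen, and female and male thymus. The sort had removed cells with IgD on the surface. The 0 in 107 cells of female thymus allows a share of up to 2.80% of cells with a UMI. Ighe, the constant gene of IgE, the antibody of allergy and helminth responses, gave 0 UMIs in both bone marrow libraries, 12 and 3 in female and male spleen, and 2 and 8 in female and male thymus. No cell had Ighd or Ighe as its leading constant gene.

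Jchain was of the same order as Ighm in CPM. It was higher in both bone marrow and both thymus libraries and in female spleen, and lower in male spleen. This does not rank the RNA of Jchain and Ighm, since UMIs of heavy-chain transcripts can be counted for V genes. Jchain stood at 89762 CPM in female and 98942 in male bone marrow, 89184 in female and 60480 in male spleen, and 48477 in female and 69614 in male thymus. The bone marrow libraries were close to each other, and the spleen and thymus libraries overlapped. Every one of the 8715 cells had at least 1 Jchain UMI. Jchain was also abundant outside the filtered lists (below), and the part of free RNA in this detection was not tested.

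**Figure D1:**
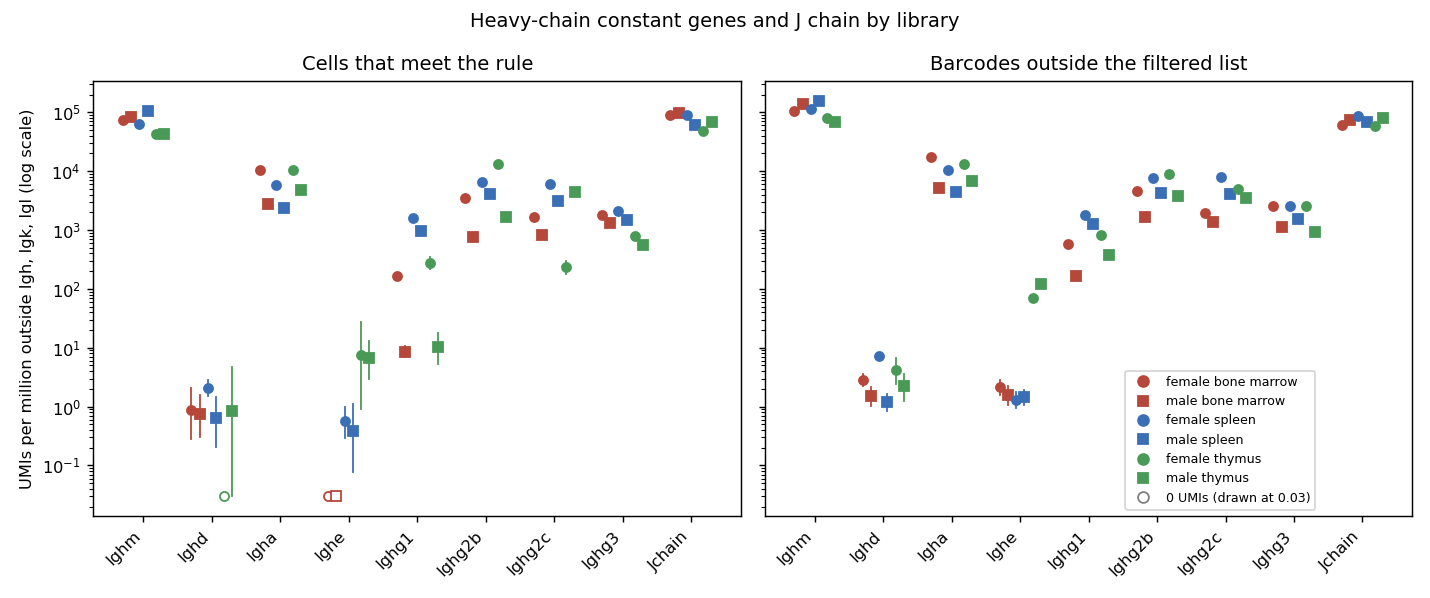
UMIs per 1e+06 outside genes starting Igh, Igk or Igl (log scale) for the 9 genes, in cells that met the rule (left) and in barcodes outside the filtered list (right). Each point is 1 library (circles female, squares male, colours by tissue), bars are exact 95% Poisson intervals that cover counting error only, and open points mark 0 UMIs; Ighg1 is highest in the 2 spleen libraries, and Ighe outside the list is high only in the 2 thymus libraries.

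The tissues and sexes were compared with edgeR on library sums, in a single fit with sex and tissue as additive terms, which leaves 2 residual degrees of freedom for 6 libraries, and p-values were adjusted over 11559 genes. The p-values measure only the spread between these libraries. Of the members, 8 passed the filter on low counts, and Ighd did not. Between thymus and spleen 1 of 8 passed, where 0.484% of all genes did: Ighg1 was lower in thymus, by a log2 difference of -5.12 (SE 0.90, edgeR adjusted p = 0.0270). Between spleen and bone marrow 1 of 8 passed, where 0.363% of all genes did: Ighg1 was higher in spleen, by 5.42 (SE 0.90, edgeR adjusted p = 0.0211). The differences stayed near these sizes but did not pass in the cells with under 10% ribosomal UMIs (-4.67 and 4.54, edgeR adjusted p = 0.0683 and 0.111) or after thinning to the smallest library (-4.59 and 4.95, edgeR adjusted p = 0.0772 and 0.102). The second was also lost without male bone marrow, where the difference was 4.6 (edgeR adjusted p = 0.438). Without male spleen the differences were -3.22 and 3.44, the smallest with 1 library left out, and the largest were -6.51 and 6.77. In the other settings the largest were -7.39 and 6.78. The fit holds a single sex term for all tissues, while the sex difference of Ighg1 was smaller in spleen than in the other tissues (values below). Between thymus and bone marrow 1 of 8 passed, where 0.64% of all genes did. It was Ighe, with 10 UMIs in the 2 thymus libraries against 0 in bone marrow, 34.3-fold against a floor of 3 UMIs over the tissue and with a 95% counting limit of 23.1-fold. Only in thymus was it above 1 CPM, so it was tested because it was high there and its call supports nothing further. Thymus barcodes outside the filtered lists held more of it, 70.5 CPM in the female and 119 in the male library. That call was lost without each of 4 of the 6 libraries.

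Between male and female libraries 0 of 8 members passed in edgeR, where 0.381% of all genes did; 2 members had an unadjusted p under 0.05, and DESeq2 called 3, where it called 0.452% of all genes. DESeq2 called Ighe, Ighg3 and Ighm (3 members) between thymus and bone marrow, and these with Ighg1 (4 members) between thymus and spleen, where it called 0.887% and 1.11% of all genes. Ighg1 had a log2 difference of male minus female of -3.40 (SE 0.71, edgeR adjusted p = 0.0822). It was -1.42 with the light-chain limit at 90% and -1.30 in cells with at least 10% ribosomal UMIs, and passed in edgeR at -4.50 without either spleen library and at -2.71 without either thymus library. Ighg2b had one of -2.12 (SE 0.77, edgeR adjusted p = 0.504), which ran from -3.12 to -1.59 in settings other than leaving out a library. Igha had one of -1.61 (SE 0.75, edgeR adjusted p = 0.591). All 3 were lower in the male library of each tissue, and DESeq2 called all 3. For Ighg1 this was uneven, with log2 differences of -4.24 in bone marrow, -0.74 in spleen and -4.79 in thymus. For Ighm the difference of thymus was -1.17 from bone marrow (SE 1.45, edgeR adjusted p = 0.856) and -1.26 from spleen (SE 1.45, edgeR adjusted p = 0.835). DESeq2 called both, at -1.14 (DESeq2 adjusted p = 0.00842) and -1.23 (DESeq2 adjusted p = 0.00268). Jchain differed by -0.96 between thymus and bone marrow (SE 1.5), -0.70 between thymus and spleen (SE 1.52), -0.26 between spleen and bone marrow (SE 1.5) and -0.11 between male and female (SE 1.24), none of which passed (lowest edgeR adjusted p = 0.886). The differences of thymus moved to -0.49 from bone marrow without female thymus and -1.56 without male thymus, and to -0.0059 from spleen without female spleen and -1.32 without male spleen.

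Each cell was then given the isotype class of its leading constant gene where it had at least 10 UMIs of the 8 genes and the leading one held at least 50% of them. This classed 8612 cells and left 103 without a class. Ighm led in 7048 cells, Ighg2b in 474, Igha in 485, Ighg2c in 354, Ighg3 in 171 and Ighg1 in 80. In bone marrow, IgM cells made up 81.6% of the classed cells of the female library and 92.4% of the male one. The values were 74.1% and 88.3% for spleen and 67.3% and 79.9% for thymus. In each tissue the female library had the smaller IgM share. Both bone marrow libraries lay above both thymus libraries, and spleen overlapped with both.

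The IgA share of bone marrow was 8.78% for the female and 3.61% for the male library. It was 6.85% and 1.96% for spleen, and 16.8% and 8.45% for thymus, with 18 and 24 cells. The exact 95% interval in female thymus ran from 10.3% to 25.3%. The IgG share of bone marrow was 9.59% and 4.03%, that of spleen 19.1% and 9.73%, and that of thymus 15.9% and 11.6%. Averaged over the 2 libraries, the IgG share was 6.81% ± 3.93 (SD, n = 2) in bone marrow, 14.4% ± 6.60 in spleen and 13.8% ± 3.02 in thymus. With 2 libraries per tissue an exact test cannot fall below 0.05, and none was made.

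Within the IgG cells, the subclasses differed between libraries. Ighg2b led in 55.9% of the 118 IgG cells of female bone marrow, 43.5% of the 665 of female spleen and 40.2% of the 179 of male spleen. In male bone marrow it led in 31.3% of 67, below Ighg2c (35.8%) and Ighg3 (32.8%). The spleen libraries had nearly the same make-up, with Ighg2c in 34.1% and 34.6% and Ighg1 in 9.17% and 8.38%. In thymus, Ighg2b led in 14 of 17 IgG cells of the female library and 12 of 33 of the male one, while Ighg2c led in 0 and in 19. No IgG cell was led by Ighg1 in male bone marrow (0 of 67) or male thymus (0 of 33). The exact intervals for counting error reach 5.36% and 10.6%, so such cells need not be absent. By VDJ contig, Ighg1 was the constant gene of 2 of 1587 cells in male bone marrow and 3 of 847 in male thymus.

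**Figure D2:**
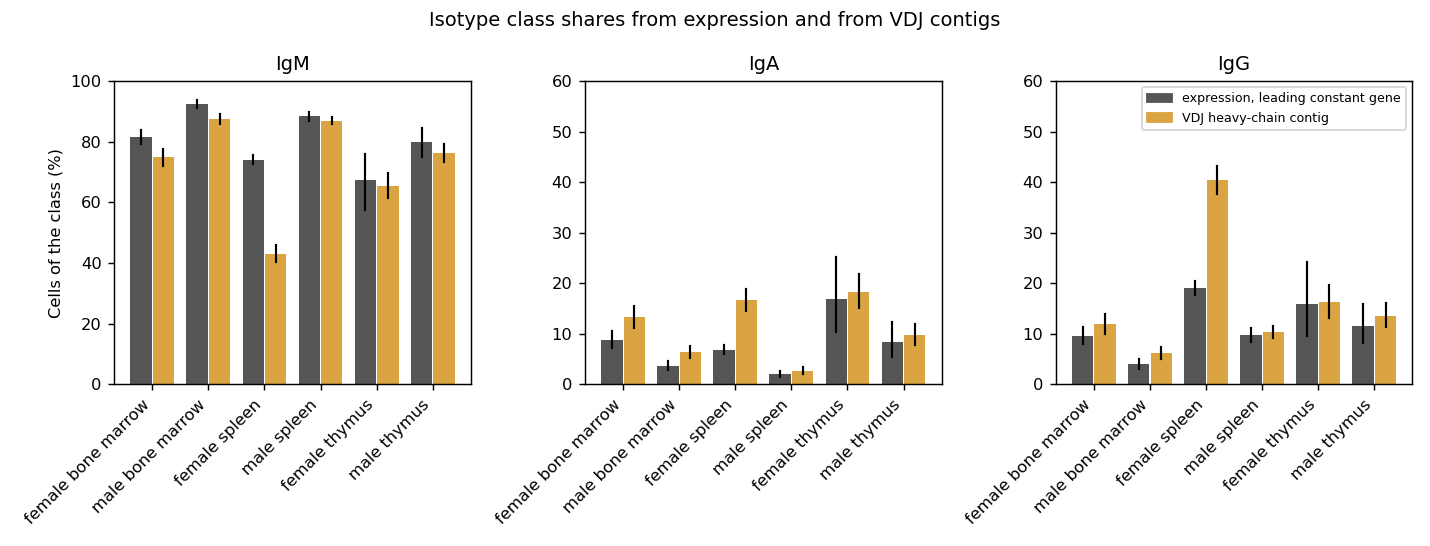
Share of cells (%) in the IgM, IgA and IgG classes by library, from the leading constant gene in the expression tables (grey) and from the constant gene of the VDJ heavy-chain contig (yellow), with exact 95% binomial intervals for counting error. VDJ libraries are placed by shared barcodes; the gap between the readouts is widest in female spleen, where IgM is 74.1% by expression and 43.0% by VDJ.

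The VDJ contigs gave a second reading of the isotype in the same cells. Of the 4828 classed cells with a heavy-chain contig and its constant gene, 98.2% had the same constant gene in both, from 96.2% in female spleen to 99.5% in male bone marrow. By contig, 3628 of 3640 Ighm cells were led by Ighm in expression, as were 382 of 396 Igha cells, 330 of 356 Ighg2b cells, 216 of 239 Ighg2c cells, 129 of 138 Ighg3 cells and 57 of 59 Ighg1 cells. When the libraries were joined by labelled sex instead, 16 cells shared a barcode and 10 of them had the same gene.

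The VDJ libraries held 8001 cells with a heavy-chain constant gene, and fewer of them were IgM. For bone marrow the IgM share was 74.9% in the female and 87.5% in the male library. For spleen it was 43.0% and 87.0%, and for thymus 65.5% and 76.3%. The gap in female spleen went with which cells had a contig. The 1058 classed cells there with a contig were 47.7% IgM by expression, with a median of 7375 UMIs outside immunoglobulin, and the 2430 without one were 85.6% IgM, with a median of 3541. Each clone (V gene, J gene and CDR3 nucleotides) was also counted once in every class that it held. Of these pairs of clone and class, IgM took 51.5% in female spleen and 83.2% in male spleen, where the largest IgM clone alone had 920 cells.

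Of 1002 clones with at least 2 cells, 132 (13.2%) held 2 or more constant genes, and the share ran from 6.91% in male bone marrow to 28.3% in female spleen. The CDR3 nucleotides of the 3 clones with the most constant genes and then the most cells are printed because the same V gene, J gene and CDR3 were read with several isotypes. They are named by library and V gene, and whether a contig of free RNA added a constant gene to a clone was not tested. A shared IGHV1-80, IGHJ3 and CDR3 combination was read in 23 cells of male and 17 of female bone marrow. Whether the cells of a clone, from pools of 3 mice, share an origin was not tested.
Male spleen IGHV9-3: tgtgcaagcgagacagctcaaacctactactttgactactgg
Female spleen IGHV1-78: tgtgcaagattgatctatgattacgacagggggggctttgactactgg
Female spleen IGHV1-26: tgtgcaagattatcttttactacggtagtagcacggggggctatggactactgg

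The male spleen clone had 933 cells, of which 920 carried Ighm, 5 Ighg3, 3 Igha, 2 Ighg1, 2 Ighg2b and 1 Ighg2c. The IGHV1-78 clone had 84 cells, of which 44 carried Igha, 16 Ighg2b, 11 Ighg2c, 7 Ighm and 6 Ighg1. The IGHV1-26 clone had 66 cells, of which 32 carried Ighg2b, 16 Ighg1, 11 Igha, 5 Ighg2c and 2 Ighg3, and none Ighm. The 2 female clones thus consisted mostly of switched cells, and the male one almost wholly of IgM cells.

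Ighe contigs were found in 3 cells, all in the VDJ library that shares its barcodes with male thymus. Their CDR3 nucleotides are printed because they show 3 separate rearrangements.
IGHV1-71: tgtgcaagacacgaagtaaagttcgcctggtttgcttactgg
IGHV2-4: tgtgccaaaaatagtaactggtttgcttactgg
IGHV8-8: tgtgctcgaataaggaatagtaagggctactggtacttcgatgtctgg

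They had 574, 77 and 30 UMIs in the VDJ table. The first was on a barcode of the filtered expression list with 44 Ighe and 111 Ighm UMIs, which did not meet the light-chain rule, and the others were not in that list. The IGHV2-4 rearrangement was also read in 1 cell with Ighm and 1 with Igha. Ighd was the constant gene of 1 contig, in male bone marrow, on a barcode with 1 Ighd and 28 Ighm UMIs.

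Jchain was then compared between the isotype classes. In female bone marrow it stood at 92096 CPM in IgM, 133789 in IgA and 37707 in IgG cells. In male bone marrow it stood at 100284, 119854 and 43121. In female spleen the values were 95491, 115049 and 62161, and in male spleen 61672, 79445 and 50803. In male thymus they were 69182, 98735 and 54357. In all 5 of these libraries IgA cells were highest and IgG cells lowest; female thymus had under 20 cells in IgA and in IgG and was left out of the comparison, with 41570, 93699 and 30917 in the same order.

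In edgeR on sums by library and class with the library as a block, over 9274 genes outside immunoglobulin, Jchain was lower in IgG than in IgM cells by a log2 difference of -0.77 (SE 0.16, edgeR adjusted p = 0.00109), where 11.5% of all genes passed. This call was lost with DESeq2 (-0.72, DESeq2 adjusted p = 0.273), without the library block (-0.66, edgeR adjusted p = 0.519) and with the class limit at 80% (-0.34, edgeR adjusted p = 0.196). Jchain was higher in IgA than in IgG cells by 1.09 (SE 0.16, edgeR adjusted p = 2.0e-05), where 11.5% of all genes passed, and without the library block (1.13) this did not pass. The IgA and IgM classes differed by 0.32 (SE 0.16, edgeR adjusted p = 0.240), which did not pass, where 9.72% of all genes did. Over the 5 libraries, the mean log2 difference was 0.39 ± 0.13 (SD) for IgA minus IgM, with IgA higher in 5 of 5, and -0.75 ± 0.48 for IgG minus IgM, with IgG lower in 5 of 5. The exact two-sided sign-flip permutation test gave p = 0.0625 for each of the 3 pairs (0.0625 after adjustment over the pairs), the smallest that 5 libraries can give.

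The classes were also compared within each kind of cell, where fewer libraries held enough cells with more ribosomal transcripts. In cells with at least 10% ribosomal UMIs, edgeR gave 0.77 for IgA minus IgM (adjusted p = 0.000999), where 2 libraries held both classes (exact sign-flip permutation p = 0.5, the smallest they can give). Jchain was lower there in IgG than in IgM cells (edgeR adjusted p = 5.27e-07), a pair that 3 libraries held. Their mean log2 difference was -0.95 (exact sign-flip permutation p = 0.25, the smallest they can give). In cells with under 10% edgeR gave 0.84 for IgA minus IgM (edgeR adjusted p = 0.0422) and -0.08 for IgG minus IgM (edgeR adjusted p = 0.886). IgG cells were below IgM cells in 3 of 5 libraries there, and above them in both spleen libraries. IgA minus IgG was 1.77 in cells with at least 10% (2 libraries) and 0.91 in the others (edgeR adjusted p = 0.0242). In those others it was 0.83 in female and 1.31 in male bone marrow, 0.11 in female and -0.14 in male spleen, and 2.81 in male thymus, so IgA was higher in 4 of 5 libraries (exact sign-flip permutation p = 0.1875). These sums differed from the median cells. In male thymus the IgA sum was 81247 CPM and its median cell 27962, and in male bone marrow 74758 and 32820, against IgM medians of 20616 and 23560. By the median cell of the same subset, IgA was above and IgG below IgM in 5 of 5 libraries, which was not tested. The share of cells with at least 10% ribosomal UMIs was 23.1% in IgA and 33.8% in IgM cells of female bone marrow, 20% and 34.5% in male bone marrow, and 35.6% and 51.6% in female spleen. It was 11.1% and 18.0% in male spleen and 8.33% and 20.7% in male thymus, so lower in IgA cells of all 5 compared libraries; in female thymus it was 44.4% and 6.94%. In IgG cells it was 28.0% in female and 23.9% in male bone marrow, 46.3% in female and 14.5% in male spleen, lower than in IgM cells of these 4 libraries, and 30.3% in male thymus, higher than in IgM. Its part in the difference between IgG and IgM cells over all cells was not tested. The difference between IgG and IgM cells thus passed in edgeR in the cells with more ribosomal transcripts, over 3 libraries, and not in the others, over 5. A test between the kinds was not made. Taking the class from the VDJ contig gave -1.01 for IgG minus IgM and 0.19 for IgA minus IgM (edgeR adjusted p = 0.526). By that class female spleen turned, with 121023 CPM in IgA and 128089 in IgM cells. There 40.1% of the IgA and 84.9% of the IgM cells had at least 10% ribosomal UMIs.

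**Figure D3:**
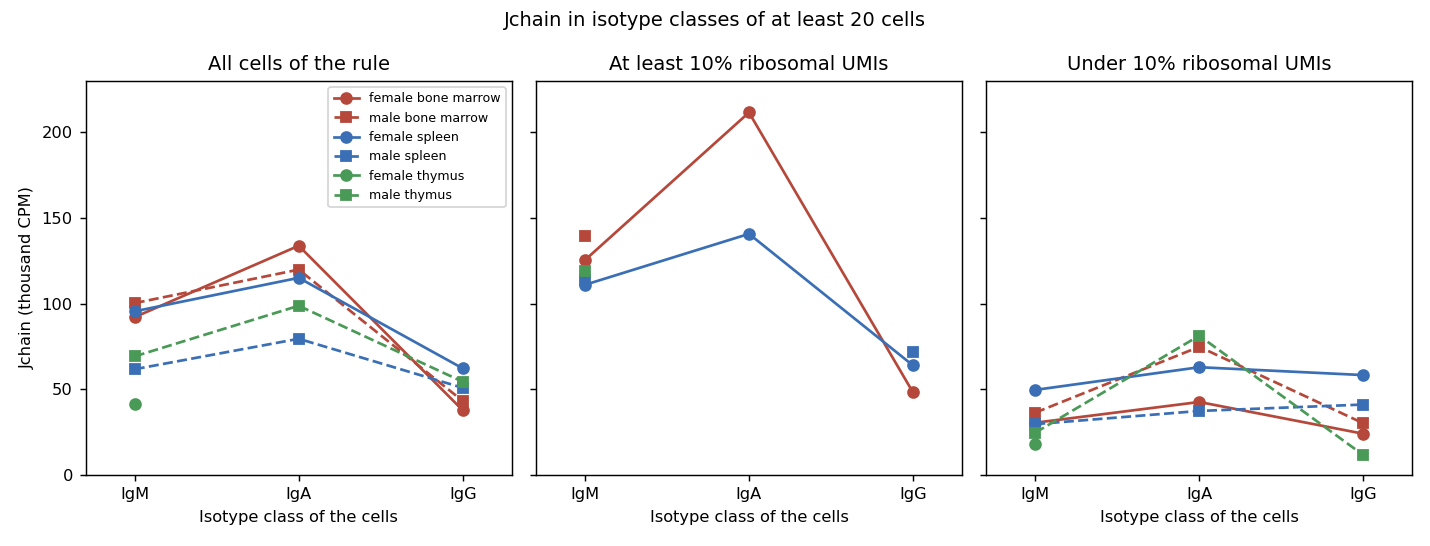
Jchain level in CPM (axis divided by 1000) by isotype class, for classes of at least 20 cells in all cells of the rule (left), cells with at least 10% ribosomal UMIs (middle) and cells with under 10% (right). Each line is 1 library; in the left panel IgA is highest and IgG lowest in the 5 libraries with 3 classes, and in the right panel IgG is not below IgM in either spleen library.

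Over single cells, the median of Jchain was higher in each bin of ribosomal share up to 15% than in the one below. In male spleen its median was 23692 CPM in cells with under 5% ribosomal UMIs, 58886 at 5% to 10%, 133486 at 10% to 15% and 110920 above. In female spleen the medians were 34505, 52829, 124875 and 102515. The cells at 5% to 10% already had medians of 119376 in male bone marrow (86 cells) and 110631 in male thymus (13 cells), so the higher level did not begin at 10% in every library. In cells with at least 10% ribosomal UMIs bone marrow had medians of 141825 CPM (female) and 156774 (male), spleen 115902 and 119804, and thymus 156452 and 123035. In the other cells bone marrow had 24355 and 23627, spleen 39492 and 25279, and thymus 10596 and 19482. The first kind had the higher median in every library, and also the deeper cells. Ighm in IgM cells went the other way in 5 of 6 libraries, by little in male thymus: its median was 64453 CPM in the first kind and 116934 in the second in female bone marrow, 58900 and 114560 in male bone marrow, 68704 and 121820 in female spleen, and 78316 and 141123 in male spleen. In thymus the medians were 68576 and 60206 in the female and 43852 and 45860 in the male library.

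**Figure D4:**
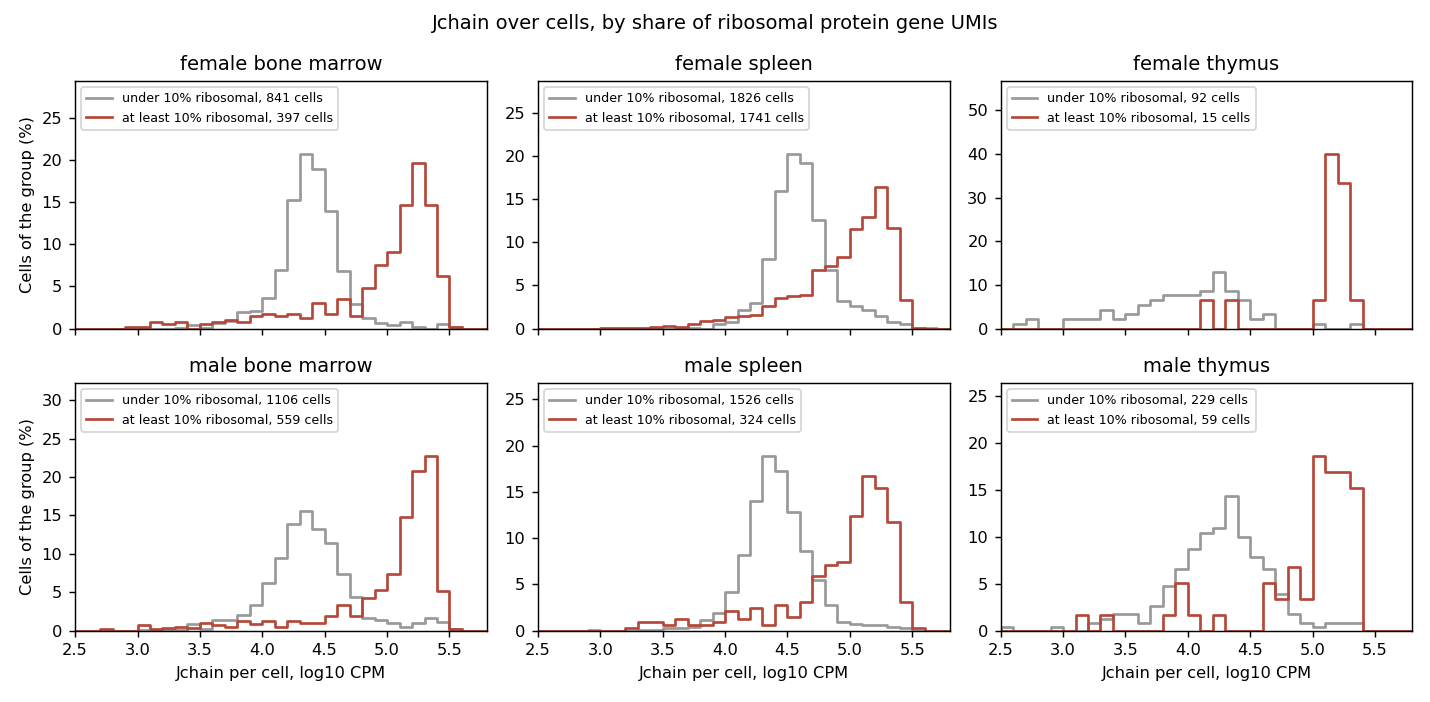
Distribution of Jchain over cells (log10 of UMIs per 1e+06 outside genes starting Igh, Igk or Igl) in each library, as the percent of cells per bin of 0.1, for cells with at least 10% (red) and under 10% (grey) ribosomal UMIs. The red medians run from 115902 to 156774 CPM and the grey ones from 10596 to 39492; female thymus has 15 red cells.

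Barcodes outside the filtered lists hold free RNA and may also hold cells, since only 333 of 667 and 706 of 917 VDJ barcodes of female and male thymus were in the matching lists. Jchain stood there between 58319 CPM (female thymus) and 88207 (female spleen). Ighm stood between 67191 CPM (male thymus) and 156682 (male spleen), ranges that overlap those in cells of the rule for both members. Ighm was also found in cells of other classes; whether it came from free RNA, doublets or the cell itself was not tested. It stood at 11382 to 24415 CPM in IgA cells and 10383 to 20824 in IgG cells of bone marrow and spleen. In thymus it stood at 1788 and 2297 in IgA cells and 2815 and 2663 in IgG cells. These levels were between 2.24% and 15.6% of those outside the list. Within their own class, IgG cells had 44407 to 86524 CPM of the IgG genes together and IgA cells 41614 to 116758 of Igha, levels that the class rule itself used.

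Ighe was more abundant outside the filtered lists of thymus than in the cells of the rule. Outside the filtered lists it stood at 70.5 CPM (289 UMIs) in female and 119 (810 UMIs) in male thymus, against 2.13 and 1.58 in bone marrow and 1.30 and 1.45 in spleen. In cells that met the rule in thymus it stood at 7.56 and 6.73, lower than outside the list, with no barcode above 1 UMI. Filtered barcodes outside the rule had 66.7 and 126 CPM of Ighe in thymus, and 44 of the 110 UMIs of the male library were on the 1 barcode with an Ighe contig. Thinned to 1000 UMIs, 0 of 107 cells in female and 3 of 288 (1.04%) in male thymus kept an Ighe UMI, against 1.87% and 2.78% before thinning. Over the summed Ighe UMIs of the cells of the rule, 10 in thymus and 15 in spleen, the ratio of thymus to spleen was 13.4. Its 95% interval from 5.38 to 31.9 covers counting error only and not the spread between libraries. Whether these UMIs came from the cells or from free RNA was not tested.

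The genes most like Jchain, Ighm and Igha were found by Pearson correlation of log2(CPM + 1) over the 16 sums by library and class, among 2971 genes with a mean of at least 50 CPM. These sums share libraries and depth, and their classes were set by the leading constant gene. Values for Ighm, Igha and the IgG genes therefore partly restate the differences between classes, and all values are descriptions. Jchain went most closely with Tnfrsf17 (r = 0.90), the plasma cell receptor BCMA, then with Limd2 (0.85), Rnase6 (0.81), Klhdc2 (0.79) and Il2rg (0.75). Ighm went with Herpud1 (0.88), a gene of the endoplasmic reticulum stress response, Aldoa (0.88), Lag3 (0.84), Phgdh (0.84) and Zfand6 (0.84). Igha went with Uck2 (0.87), Itgb7 (0.86), Ccr10 (0.80), Klhdc2 (0.78) and Limd2 (0.77). Among the members, Jchain had r = 0.68 with Igha, 0.04 with Ighm and -0.66 with Ighg2c.

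A list of 46 genes around isotype and J chain was tested in the same fits. Between tissues and sexes 0 of 42 tested list genes passed in edgeR in any of the 4 contrasts, with 1 to 4 at an unadjusted p under 0.05. At shares of 0.363% to 0.64% over all genes, 0 of 42 is no result about the list. DESeq2 also called none. Between IgA and IgM cells 11 of 37 tested list genes passed, 6 higher and 5 lower in IgA, where 2.91% of all genes passed as higher and 6.8% as lower; the median of the list was -0.16 and of all genes -0.09.

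All 4 genes of the group on homing of IgA cells passed as higher in IgA than in IgM cells. Ccr10, a chemokine receptor that guides IgA cells to mucosal tissues, had 50.7 to 434 CPM over the 5 IgA sums and 0 to 34.6 over the 6 IgM sums, a log2 difference of 4.09 (SE 0.19). In male thymus the classes were close, with 50.7 CPM in IgA (6 UMIs), 34.6 in IgM and 41.9 in IgG. Ccr9, the receptor for the small-intestinal chemokine CCL25, had 25.3 to 171 CPM in IgA and 0 to 3.82 in IgM sums, a difference of 4.70 (SE 0.29). Itgb7, the beta subunit of the gut-homing integrin, had 229 to 456 CPM in IgA, 31.5 to 67.0 in IgM and 48.2 to 109 in IgG sums. Its differences from IgM were 2.81 (SE 0.11) in IgA and 0.71 (SE 0.12) in IgG. The IgA and IgM sums did not overlap for these 3 genes. Itga4, its alpha partner, was 0.48 higher in IgA (SE 0.14, edgeR adjusted p = 0.0214) and 0.58 higher in IgG than in IgM cells. In male thymus it was lower in IgA, at 304 CPM against 329 in IgM. It is named in IgA as the fourth of the group, after its values were seen. Its IgA call was lost without either bone marrow library or male spleen, in either kind of cell by ribosomal share, with the class limit at 80%, with the light-chain limit at 90% and without the library block (edgeR adjusted p up to 0.753).

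Among the receptors of secreted antibody, Fcmr, which binds IgM, was lower in IgA than in IgM cells by a log2 difference of -1.32 (SE 0.27), and Fcgr2b, the inhibitory IgG receptor, by one of -0.72 (SE 0.14). Of the switch signals, Tgfbr1, a receptor subunit of TGF-beta, which directs switching to IgA, was 0.78 higher (SE 0.14). Smad3, which acts below that receptor, had a difference of -1.73 (SE 0.45) at 0 to 8.45 CPM in IgA and 5.58 to 27.9 in IgM sums. Pou2af1, a coactivator of immunoglobulin genes, was lower than in IgM cells by -0.40 (SE 0.11) in IgA and by -0.65 (SE 0.11) in IgG. Without female spleen the difference of Fcmr was -3.07, and Smad3 no longer passed without either spleen library (edgeR adjusted p up to 0.0834). Pou2af1 in IgA no longer passed without any 1 of the bone marrow and spleen libraries (edgeR adjusted p up to 0.101). In cells with at least 10% ribosomal UMIs the IgA differences of Fcmr, Fcgr2b, Smad3, Pou2af1 and Tgfbr1 from IgM did not pass, nor did they without the library block (edgeR adjusted p up to 0.821). With the light-chain limit at 90% Fcmr, Fcgr2b, Pou2af1 and Tgfbr1 did not pass, with the class limit at 80% Fcgr2b and Pou2af1 did not, and with DESeq2 Smad3 and Pou2af1 did not. Smad3 had a value in only 8 of the 10 settings other than leaving out a library. Pou2af1 in IgA also did not pass in cells with under 10% ribosomal UMIs, while its IgG difference was -1.08 with the light-chain limit at 90%.

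Between IgG and IgM cells 10 of 37 tested list genes passed, 5 in each direction, where 4.24% of all genes passed as higher and 7.27% as lower. Txndc5, a disulfide isomerase of the endoplasmic reticulum, had 1647 to 2560 CPM over the 5 IgG sums and 4882 to 6784 over the 6 IgM sums, a log2 difference of -1.51 (SE 0.11). The 2 ranges did not overlap. Of the 5 tested genes on assembly and retention of polymers, to which Txndc5 belongs, 2 were higher in IgG cells: Erp44, which retains unassembled IgM, by 0.54 (SE 0.10), and Mzb1, a chaperone of IgM assembly, by 0.49 (SE 0.12). Tgfbr2 was -0.72 (SE 0.13) and Tnfrsf13b, the receptor TACI, -0.43 (SE 0.11) from IgM. Mzb1 no longer passed without male spleen (edgeR adjusted p = 0.0520), nor Tnfrsf13b without female bone marrow or female spleen (edgeR adjusted p up to 0.0509). Without the library block Erp44, Mzb1, Tnfrsf13b, Tgfbr2, Pou2af1 and Itga4 did not pass in IgG (edgeR adjusted p up to 0.628). With the light-chain limit at 90% Tgfbr2 (edgeR adjusted p = 0.234) and Itgb7 (edgeR adjusted p = 0.0843) did not pass in IgG, and in cells with at least 10% ribosomal UMIs Tgfbr2 and Itga4 did not. With the class limit at 80% the IgG difference of Itga4 was 0.13 and did not pass. Between IgA and IgG cells 16 of 37 passed, 8 in each direction, where 4.21% of all genes passed as higher and 7.33% as lower. They included Ccr9 (4.88), Ccr10 (4.04), Itgb7 (2.10), Txndc5 (1.47), Tnfrsf13b (0.74), Mzb1 (-0.83), Fcgr2b (-0.76) and Erp44 (-0.66). Without the library block Tnfrsf13b, Mzb1, Fcgr2b and Erp44 did not pass (edgeR adjusted p up to 0.548). Fcgr2b also did not pass with the class limit at 80%, in cells with at least 10% ribosomal UMIs, or with the light-chain limit at 90%, where it was -0.22 (edgeR adjusted p = 0.758), and Mzb1 was -0.51 with that last limit. The edgeR adjusted p-values of the genes named in these 3 comparisons were at most 0.0205 apart from that of Itga4 in IgA against IgM, and Ccr10, Ccr9, Itgb7 (in IgA) and Txndc5 passed in all 16 alternative fits.

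**Figure D5:**
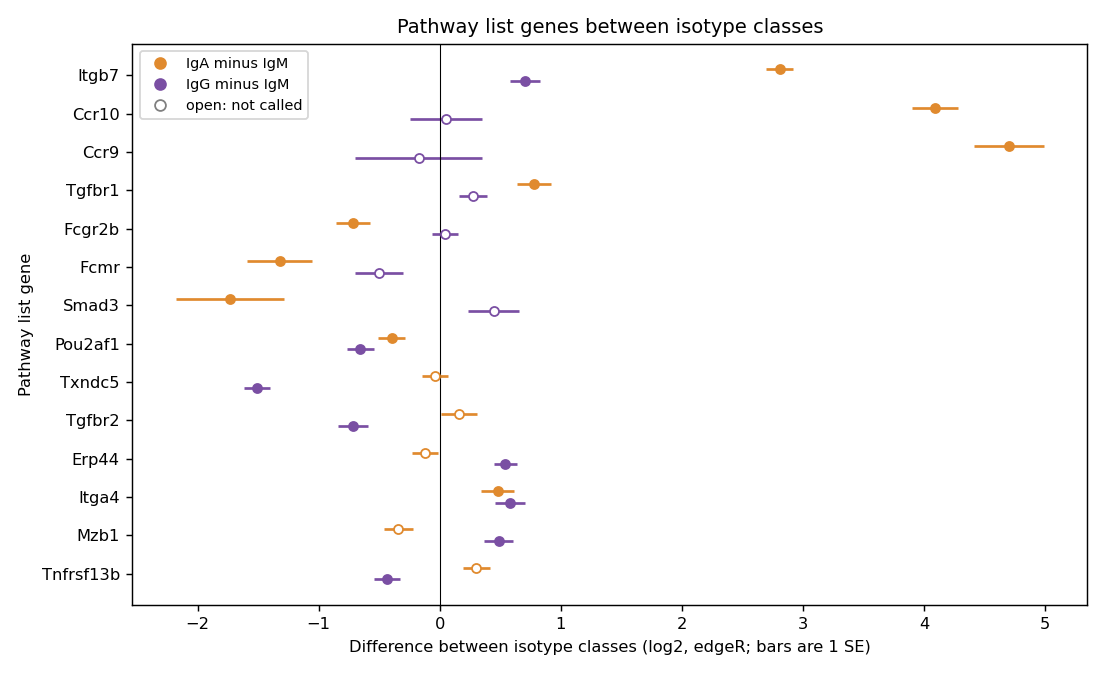
Log2 differences between isotype classes (edgeR, bars 1 standard error) for the list genes named by the rule, for IgA minus IgM (orange) and IgG minus IgM (purple); filled points passed at an adjusted p under 0.05. Ccr9, Ccr10 and Itgb7 are the 3 genes farthest to the right in IgA, and Txndc5 the gene farthest to the left in IgG.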

How the data were processed

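The expression tables hold UMI counts per gene and barcode, made by the authors with Cell Ranger 6.0.2 and a GRCm38 (mm10) reference, per the submitters' processing notes; the VDJ tables list contigs with UMI counts as deposited. The filtered lists held 39949 barcodes, of which 8715 met the limits of 1000 UMIs and 50% given above. Doublets were not called, and the limit of 50% on the leading light-chain V gene leaves in pairs of cells in which 1 light chain leads. Counts were summed per library, and per library and isotype class with at least 20 cells (16 sums). The sums were tested with edgeR 4.0.16 (R 4.3.3) by its quasi-likelihood test with Benjamini-Hochberg adjustment over all tested genes and a threshold of 0.05. Library sizes and TMM factors came from genes not starting Igh, Igk or Igl (395 genes left out), so Jchain is part of the library size. Class sums had the library as a block, since classes of 1 library share its cells, pool and run. DESeq2 1.42.0 was the alternative tool. The scripts were tested on simulated data. Intervals are 95% Poisson or binomial (Clopper-Pearson) and cover counting error only.

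The members and lists were chosen with earlier results of these data known. All 9 members are named; list genes are named where they passed, at most 8 per contrast by smallest p, and Itga4 in IgA against IgM was named after its value was seen. The 5 most correlated genes are named for Jchain, Ighm and Igha. The split at under 10% ribosomal UMIs, Jchain left out of the library size, the class from the VDJ contig and the pairing by labelled sex were alternatives chosen after seeing the data. Exon sequences and positions are from the GRCm38 annotation; protein sequences were not used here.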

Additional observations from a re-analysis of the deposited data

Results flagged for a closer look

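Ighg2c was lower in the male than in the female library by a log2 difference of -1.01 in bone marrow and -0.91 in spleen, and higher by 4.24 in thymus. It was picked out because the tissues go opposite ways. In thymus the values rest on 62 Ighg2c UMIs in the female and 5257 in the male library, and on 0 and 19 cells led by Ighg2c. The difference between tissues was not tested, since each tissue has 1 library per sex.

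Jchain was picked out for the same reason, with a male minus female log2 difference of 0.14 in bone marrow, -0.56 in spleen and 0.52 in thymus. The share of cells with at least 10% ribosomal UMIs was 48.8% in female and 17.5% in male spleen, and 14.0% in female and 20.5% in male thymus. By VDJ contig, the largest IgM clone held 37.7% of the IgM cells of male spleen and 6.70% of those of female spleen. The part of either in the result was not tested, and neither was the difference between tissues.

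Ighe in barcodes outside the filtered lists, which no comparison used, stood at 70.5 CPM in female and 119 CPM in male thymus. It was picked out because this lies above the level in bone marrow and spleen, where the highest value was 2.13 CPM.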

How the results depend on the processing

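Of 250 values for counts, shares and Jchain class differences under settings other than leaving out a library, 198 kept their direction and side of the threshold or their size. Where a value moved, the cause was not tested.

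The number of members that passed between thymus and bone marrow was 3 with DESeq2 and 0 after thinning, with the light-chain limit at 90%, and in either kind of cell by ribosomal share; leaving out 1 library gave 0 to 1. Between thymus and spleen it was 4 with DESeq2, 0 after thinning and 0 under 10% ribosomal UMIs, and 1 to 2 without 1 library. Between spleen and bone marrow it was 0 after thinning and 0 under 10% ribosomal UMIs, and 0 to 1 without 1 library. Between male and female it was 3 with DESeq2, 2 without V, D and J segment genes, 1 with no low-count filter, 1 at 2000 UMIs, 1 at 10% or more ribosomal UMIs, and 0 to 1 without 1 library. Over all genes, the number that passed also moved with the settings other than leaving out a library. It ran from 25 to 222 between thymus and bone marrow (main fit 74) and 15 to 240 between thymus and spleen (56). For spleen against bone marrow it ran from 10 to 184 (42), and for male against female from 5 to 179 (44). The counts of members were not read as results beside these.

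The Jchain difference, which passed in none of these, turned sign between thymus and spleen at 10% or more ribosomal UMIs (0.024). Between spleen and bone marrow it turned with the light-chain limit at 90% (0.053) and under 10% ribosomal UMIs (0.36), and ran from -0.98 to 0.32 without 1 library. Between male and female it turned without TMM (0.035), with the light-chain limit at 90% (0.26) and under 10% ribosomal UMIs (0.051), and ran from -0.47 to 0.32 without 1 library, with 0.30 without female spleen.

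List genes that passed numbered 0 to 1 between thymus and spleen without 1 library. Between spleen and bone marrow they numbered 2 with no filter, 1 at 10% or more ribosomal UMIs and 0 to 3 without 1 library; between male and female 2, 1 and 0 to 2. Without the library block, as no replicate block, 3 passed for IgA minus IgM, 2 for IgG minus IgM and 4 for IgA minus IgG. Over all genes 58, 205 and 116 passed there, against 901, 1067 and 1070 with the block. For IgA minus IgM the count of list genes was 6 with the class limit at 80%, 3 with the light-chain limit at 90%, 3 at 10% or more ribosomal UMIs, and 7 to 12 without 1 library. For IgA minus IgG it was 8 with the light-chain limit at 90% and 8 at 10% or more ribosomal UMIs.

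For Jchain, IgA minus IgM passed with no filter (0.32), with the class limit at 80% (0.66), and at 10% or more (0.77) and under 10% (0.84) ribosomal UMIs. IgG minus IgM no longer passed with DESeq2 (-0.72), without the block (-0.66), with the class limit at 80% (-0.34) and under 10% ribosomal UMIs (-0.079). IgA minus IgG no longer passed without the block (1.13). Without 1 library the 3 differences ran from 0.26 to 0.37, -0.92 to -0.62 and 0.90 to 1.26. Between tissues the additive term for sex already compares libraries within sex.

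Mean class shares moved by more than 1 SD as follows. Counting each VDJ clone once per class that it held gave 75.04% IgM and 15.7% IgA in bone marrow. In spleen this gave 67.3% IgM, 8.92% IgA and 23.7% IgG, and in thymus 17.7% IgG. VDJ cells gave 65.0% IgM, 9.67% IgA and 25.3% IgG in spleen. The class limit at 80% gave 92.7% IgM and 4.97% IgG in spleen. In thymus the light-chain limit at 90% gave 63.3% IgM and 20.4% IgG, and cells with 10% or more ribosomal UMIs 56.5% IgM and 28.4% IgA. Pairing VDJ libraries by labelled sex gave a mean agreement of 67.6%. The thymus values at 10% or more ribosomal UMIs rest on 15 female and 59 male cells. Those at the light-chain limit of 90% rest on only part of the 107 female and 288 male cells of the rule. The clone value of thymus rests on 340 female and 464 male pairs of clone and class.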
